A study of Saccharomyces cerevisiae with 4 samples.

Results

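The pentose phosphate pathway of budding yeast, Saccharomyces cerevisiae, was described through 10 enzyme genes: ZWF1, SOL3, SOL4, GND1, GND2, RKI1, RPE1, TKL1, TKL2 and TAL1. They were read from 12 probe sets that the platform annotation assigns to 1 of these genes alone, out of 9275 yeast probe sets and 5656 genes that have at least 1 such probe set. The genes themselves were taken by name, as the enzymes of the pathway, but the pathway was selected on the fold change of GND2 in the comparison reported here. Values of that comparison, and the calls made from them, are therefore given for the members as a description and are no test of them.

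Total RNA of 4 independent cultures in the rich medium YPD was hybridised to 1 single-channel Affymetrix array each, with 2 cultures under the label hst3hst4 and 2 under the label wild-type. The mutant, strain YCB600, carries a double mutation in HST3 and HST4, sirtuin genes whose products remove acetyl groups from lysine residues of histone H3, and strain YCB617 is the wild type. Both strains are of the FY background, and all 4 pairings of a mutant with a wild-type culture belong to the design. A lower signal from a culture cannot tell fewer expressing cells from less RNA per cell.

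The pathway has 2 branches. In the oxidative branch glucose 6-phosphate is oxidised to ribulose 5-phosphate, and NADP is reduced to NADPH, the electron donor for biosynthesis and for the reduction of oxidised thiols. In the non-oxidative branch pentose phosphates are interconverted and exchanged with glycolytic sugars, which yields ribose 5-phosphate for nucleotides and erythrose 4-phosphate for aromatic amino acids. Yeast holds several of the steps as paralog pairs, with a main form in GND1, SOL3 and TKL1 and a second form in GND2, SOL4 and TKL2.

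Signals had been scaled by the authors to a common trimmed mean of 149.9 on every array, and median signals were 37.5 and 41.2 on arrays labelled hst3hst4 against 37.9 and 38.3 on arrays labelled wild-type. With 2 arrays per strain, the number of arrays limits the precision of every value. As a check of the labels, HST3 had signals of 0.4 and 0.5 on arrays labelled hst3hst4, against 13.7 and 25.3 on arrays labelled wild-type. HST4 went against its label, with 38.0 and 39.3 on arrays labelled hst3hst4 against 3.6 and 0.9 on arrays labelled wild-type. The sources used here do not give the position of the HST4 probes relative to the mutated part, so groups are called by their labels and every direction is that of the labels. All 9 hybridisation control probe sets were lower on arrays labelled hst3hst4, by a mean of -0.36 on the log2 scale. With arrays scaled on these controls instead, the median probe set stood at a log2 fold change of 0.34, so directions here are relative to the common trimmed mean.

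The second forms GND2, SOL4 and TKL2 stood higher on arrays labelled hst3hst4, while the other members stayed within 0.42 of no change on the log2 scale. GND2 was 6.78-fold higher, SOL4 2.23-fold and TKL2 1.8-fold. GND1, TKL1, RKI1, TAL1, ZWF1 and SOL3 had log2 fold changes from -0.42 to -0.09, and RPE1 had 0.12. Over the 10 genes the median log2 fold change was -0.17, with 4 above 0 and 6 below. All genes tested had a median of -0.01, with 2547 of 5271 above 0. Fold changes are on the log2(signal + 3.3) scale, which understates the change of dim genes.

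**Figure D1:**
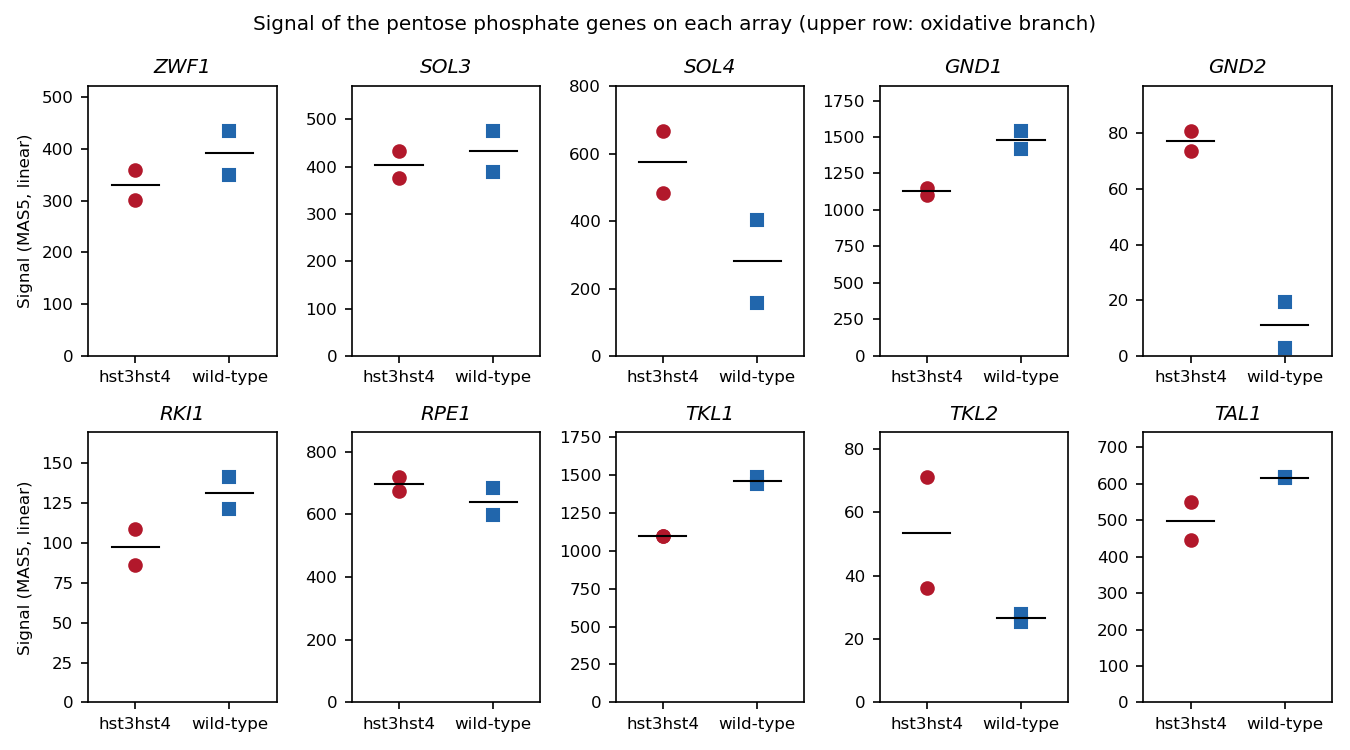
Linear MAS5 signal of each pentose phosphate gene on the 2 arrays labelled hst3hst4 (red circles) and the 2 labelled wild-type (blue squares), with the mean of each group as a bar. The groups do not overlap for GND2, SOL4 and TKL2, where arrays labelled hst3hst4 are higher, nor for GND1, TKL1, RKI1 and TAL1, where they are lower.

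All 10 members lay above the filter on dim probe sets and were tested. The filter used the mean log2 value over all 4 arrays. GND2, with 19.4 and 2.9 on arrays labelled wild-type, passed it only through the arrays labelled hst3hst4. Its call was lost with no filter. In limma's fit across 7420 probe sets, 1 of the 10, GND2, was called higher at an adjusted p under 0.05, 0 were called lower and 9 were not called. The same fit called 2.2% of the 5271 genes tested higher and 0.531% lower. At an unadjusted p under 0.05 the counts among the members were 3 higher (GND2, SOL4 and TKL2) and 2 lower (GND1 and TKL1), against 10.2% of all genes higher and 8.97% lower by that rule. The pathway was selected on the change of GND2 in this comparison, so its call follows from the choice and nothing is read from these counts.

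The groups did not overlap for 3 members that were higher and 4 that were lower on arrays labelled hst3hst4. Of all genes tested, 25.1% were higher without overlap and 27.4% lower without overlap. A difference of at least 2-fold in all 4 array pairs was seen for GND2 alone, against 1.59% of all genes that were higher by this rule.

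The oxidative branch begins with ZWF1 (YNL241C), glucose-6-phosphate dehydrogenase, which commits glucose 6-phosphate to the pathway. Its signals were 300.5 and 358.2 on arrays labelled hst3hst4, against 349.4 and 434.5 on arrays labelled wild-type. These ranges overlap. The log2 fold change was -0.25 (SE 0.18), with a 95% interval from -0.66 to 0.16.

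SOL3 (YHR163W) and SOL4 (YGR248W) encode 6-phosphogluconolactonases, which open the lactone that ZWF1 forms. SOL3 had signals of 375.5 and 432.6 on arrays labelled hst3hst4, against 389.3 and 475.2 on arrays labelled wild-type. The groups overlapped, and the log2 fold change of -0.09 (SE 0.17) had an interval from -0.48 to 0.30. SOL4 had signals of 483.3 and 667.6 on arrays labelled hst3hst4, against 404.1 and 158.3 on arrays labelled wild-type. Except on wild-type replicate 2 these were above the SOL3 signals, so main and second form are not named by signal here. For SOL4 both mutant cultures lay above both wild-type cultures. The gap between its wild-type cultures was wider than that between the nearest cultures of different strains. The SOL4 log2 fold change was 1.15 (SE 0.39, interval 0.26 to 2.05), and single array pairs ran from 1.19-fold to 4.15-fold. Leaving out wild-type replicate 1 gave 1.82, which was then called, and leaving out replicate 2 of that strain gave 0.49.

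GND1 (YHR183W) and GND2 (YGR256W) encode 6-phosphogluconate dehydrogenase, the second step that makes NADPH, and GND1 is known as the main form. GND1 signals were 1150.4 and 1105.6 on arrays labelled hst3hst4, against 1418.8 and 1541.2 on arrays labelled wild-type. Its groups were apart, with means of 1128 ± 31.7 and 1480.0 ± 86.5 (SD, n = 2 each), and the log2 fold change was -0.39 (SE 0.13, interval -0.69 to -0.09). GND2 signals were 80.8 and 73.7 on arrays labelled hst3hst4, against 19.4 and 2.9 on arrays labelled wild-type.

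The GND2 mean was 77.2 ± 5.02 on arrays labelled hst3hst4 and 11.1 ± 11.7 on arrays labelled wild-type (SD, n = 2 each), and its log2 fold change of 2.76 (SE 0.53, interval 1.54 to 3.98) was the ninth of all genes tested from the top. The mutant cultures were close to each other, while the wild-type cultures lay 1.87 apart on the log2 scale. Single array pairs ran from 3.39-fold to 13.6-fold. Leaving out wild-type replicate 1 gave a log2 fold change of 3.70 for GND2, and leaving out replicate 2 of that strain gave 1.83. It was not called without either of the arrays labelled hst3hst4, with values of 2.70 without replicate 1 and 2.83 without replicate 2.

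**Figure D2:**
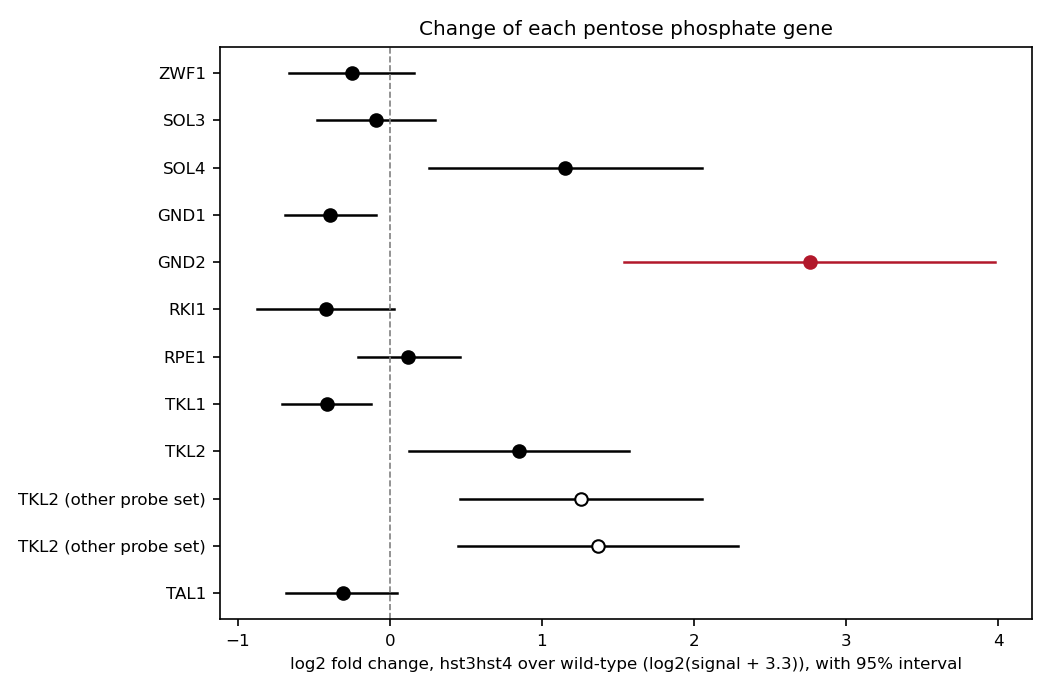
Log2 fold change of each pentose phosphate gene, hst3hst4 over wild-type on the log2(signal + 3.3) scale, with limma's 95% interval as a line. Filled points are the probe set that stands for a gene, open points the other 2 probe sets of TKL2, and red marks GND2 at 2.76, the member called at an adjusted p under 0.05.

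In the non-oxidative branch, RKI1 (YOR095C) encodes the isomerase that turns ribulose 5-phosphate into ribose 5-phosphate. Its signals were 109.0 and 86.1 on arrays labelled hst3hst4, against 121.4 and 141.0 on arrays labelled wild-type. The groups were apart by a small margin, and the log2 fold change of -0.42 (SE 0.19) had an interval from -0.87 to 0.03. RPE1 (YJL121C), the epimerase that makes xylulose 5-phosphate, had signals of 676.2 and 717.9 on arrays labelled hst3hst4, against 598.4 and 684.1 on arrays labelled wild-type. Its groups overlapped, and its log2 fold change was 0.12 (SE 0.15, interval -0.21 to 0.46).

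TKL1 (YPR074C) and TKL2 (YBR117C) encode transketolase, which moves 2-carbon units between sugar phosphates, and TKL1 is the main form. TKL1 signals were 1097.5 and 1094.3 on arrays labelled hst3hst4, against 1440.5 and 1481.7 on arrays labelled wild-type. Cultures of a strain were close for TKL1, and its log2 fold change was -0.41 (SE 0.13, interval -0.71 to -0.12). The single array pairs of TKL1 ran from -0.44 to -0.39.

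TKL2 had 3 probe sets. The brightest, which stands for the gene, had signals of 36.1 and 70.9 on arrays labelled hst3hst4, against 28.0 and 25.5 on arrays labelled wild-type. A second probe set had 35.0 and 64.2 against 13.8 and 23.2, and the third had 18.2 and 42.7 against 9.3 and 8.4, again with arrays labelled hst3hst4 given before those labelled wild-type. On all 3 probe sets the groups were apart and replicate 2 of hst3hst4 was above replicate 1. Their log2 fold changes were 0.85 (SE 0.31), 1.26 (SE 0.34) and 1.37 (SE 0.40). Probe sets of 1 gene share the RNA of an array and are not replicates. Without hst3hst4 replicate 1 the value of the brightest probe set was 1.31, and without hst3hst4 replicate 2 it was 0.39.

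TAL1 (YLR354C) encodes transaldolase, which links the branch back to glycolysis. Its signals were 446.8 and 550.9 on arrays labelled hst3hst4, against 617.1 and 617.2 on arrays labelled wild-type. Both mutant cultures were lower, by different amounts, and the log2 fold change was -0.31 (SE 0.16, interval -0.68 to 0.05).

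The 7 genes other than GND2, SOL4 and TKL2 lay between -0.42 and 0.12, and 6 of the 7 were below 0. That direction depends on the scaling. On the hybridisation controls ZWF1 had 0.11, SOL3 0.27, TAL1 0.05, GND1 -0.03, RKI1 -0.06 and TKL1 -0.05, on a scale where the median probe set stood at 0.34. SOL4, GND2 and TKL2 were at 1.51, 3.12 and 1.21 there.

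Within each paralog pair the difference in log2 fold change does not depend on how an array was scaled as a whole, since both genes are read on the same array. The value for GND2 minus GND1 was 3.15, and over the 4 array pairs it ran from 2.12 to 4.18. For SOL4 minus SOL3 it was 1.25, with a range from 0.31 to 2.19. TKL2 minus TKL1 came to 1.26, with a range from 0.72 to 1.80. In all 3 pairs the value was above 0 in 4 of 4 array pairs. The 4 array pairs share 2 arrays per strain, so this says only that the groups did not overlap. Of single genes, 25.1% were higher and 27.4% lower without overlap, and such shares were not computed for paralog pairs at large. Between the wild-type cultures the same differences moved by 1.99 for the GND pair, 1.62 for the SOL pair and 0.16 for the TKL pair. Between the hst3hst4 cultures they moved by 0.07, 0.26 and 0.92. These differences come from the comparison on which the pathway was selected and were not tested. Whether probes of 1 paralog also bind the other's RNA was not tested.

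**Figure D3:**
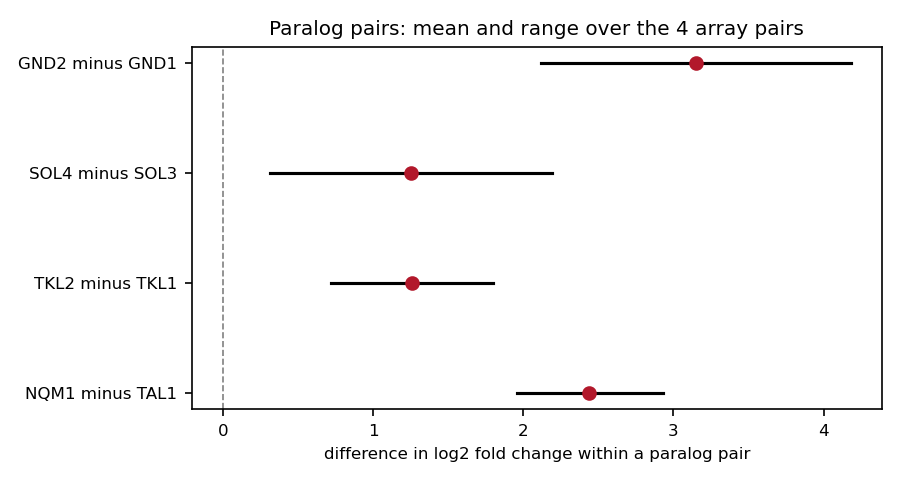
Difference in log2 fold change (hst3hst4 over wild-type) within each paralog pair, the second form minus the main form. Points are the mean, 3.15 for GND2 minus GND1. Lines run from the lowest to the highest of the 4 array pairs, all of them above 0, also for NQM1 minus TAL1. The array pairs share 2 arrays per strain and are not independent.

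TAL1 has a paralog, NQM1 (YGR043C), a transaldolase-like gene that is no member of the list. NQM1 signals were 63.0 and 78.9 on arrays labelled hst3hst4, against 20.2 and 8.8 on arrays labelled wild-type. The groups were apart, and NQM1 rose 4.38-fold (log2 fold change 2.13, SE 0.33, limma adjusted p = 0.0212). The call was lost with no filter, with no trend, and without hst3hst4 replicate 1 or replicate 2, where the log2 fold change was 2.29 and 1.98. The size of its adjusted p is not compared between alternatives, since each fit estimated the variances anew. NQM1 minus TAL1 was 2.44, with a range over array pairs from 1.96 to 2.93.

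The fold change of GND2, on which the pathway was selected, uses both wild-type cultures. The difference of GND2 between these cultures is therefore not free of that choice. Wild-type replicate 1 was above replicate 2 by 1.87 on the log2 scale for GND2, 1.33 for SOL4, 0.96 for NQM1 and 0.12 for TKL2. For the other 7 members the difference ran from -0.31 to 0.00. The median absolute difference over all genes tested was 0.23, and 105 of 5271 genes differed by more than SOL4. The GND2 signal of 2.9 on wild-type replicate 2 lies below the filter of 8.97, so the size of its difference depends on the pseudocount.

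General stress genes, many of them induced by the transcription factors Msn2 and Msn4, moved in the same cultures. Their 32 tested genes had a summed signal of 27761 and 30568 on arrays labelled hst3hst4, against 22133 and 14322 on arrays labelled wild-type. The sum is weighted to the brightest genes and does not stand for each gene of the list. Without overlap of the groups, 15 of the 32 were higher and 0 lower, against 25.1% and 27.4% of all genes tested. Wild-type replicate 1 was above replicate 2 for 30 of the 32, with a median of 0.97, and the lowest signal of any gene of the list on any array was 2.1. Between the strains 7 rose, 0 fell and 25 did not pass limma's test. At an unadjusted p under 0.05 in limma 14 were higher and 0 lower, and the list median was 0.77. Over all genes limma called 2.2% higher and 0.531% lower, with 10.2% higher and 8.97% lower at an unadjusted p under 0.05. HSP26, a small heat shock protein, had a log2 fold change of 3.37 and HSP12, a membrane-associated stress protein, 2.65, while GSY1, a glycogen synthase, had -0.60 and the disaggregase HSP104 had -0.14. The number called was 2 without hst3hst4 replicate 1, 0 without hst3hst4 replicate 2, 26 without wild-type replicate 1, and 12 when the other wild-type array was left out. The list median was 1.4 when wild-type replicate 1 was left out and 0.10 when wild-type replicate 2 was. The part of this difference between cultures in the values of GND2, SOL4 and NQM1 was not tested.

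**Figure D4:**
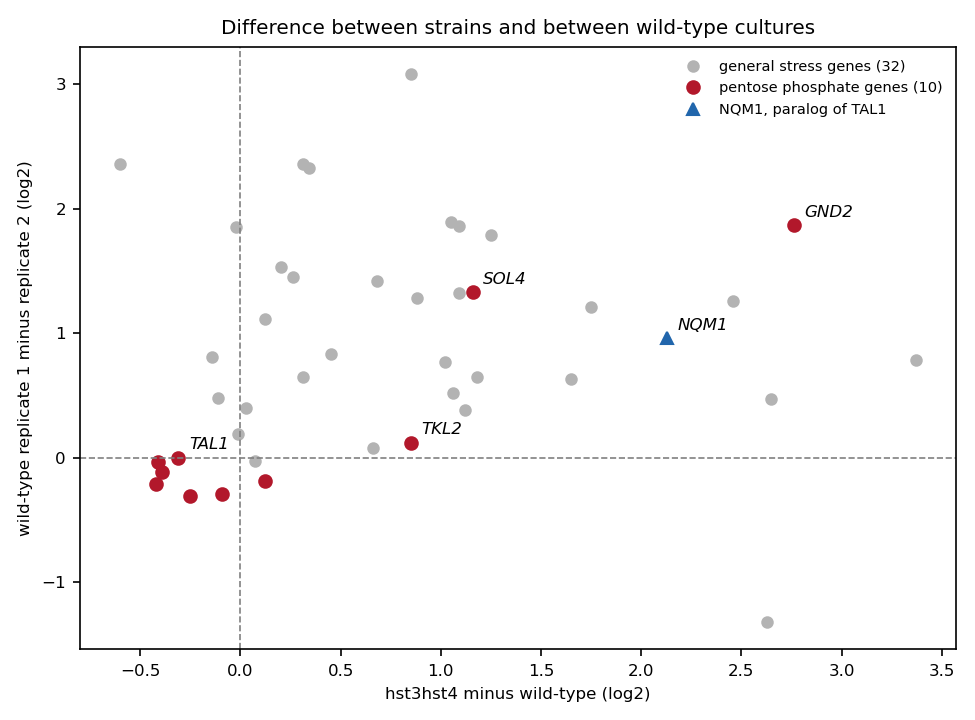
For each gene, the log2 difference between arrays labelled hst3hst4 and wild-type (horizontal) and that between wild-type replicates 1 and 2 (vertical), for the pentose phosphate genes (red), the 32 general stress genes (grey) and NQM1 (blue triangle). GND2, SOL4 and NQM1 lie to the upper right, with vertical values of 1.87, 1.33 and 0.96, TKL2 is at 0.12, and the other 7 members lie near the origin.

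The genes whose pattern over the 4 arrays was most like that of GND2, by root mean square difference of centred log2 values, were YOR338W at 0.24, CPP3 at 0.27, FMP16 at 0.28, DDR2 at 0.29 and GPG1 at 0.30. DDR2, a stress protein, is on the general stress list. Their log2 fold changes of 2.30 to 2.62 follow from that choice. For TAL1 the most like were PAM17 at 0.01, and VMA13, YNR048W, ERV46 and COY1 at 0.02, likewise with log2 fold changes near its own, from -0.32 to -0.29. This likeness rests on 4 arrays.

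SOL4 and GND2 lie on chromosome VII with 7 annotated protein-coding genes between them, and SOL3 and GND1 lie on chromosome VIII with 20 between them. The nearest gene with its own probe set on either side of each member gave 20 neighbours, of which 19 were tested. In limma 0 were called and 3 had an unadjusted p under 0.05, against 10.2% of all genes higher and 8.97% lower by that rule. The median log2 fold change of the neighbours was -0.04. They ran from -0.49 for ILV5, beside TAL1, to 0.55 for YJL118W, beside RPE1. The neighbours of GND2, COQ6 and MTM1, had 0.08 and 0.03, and those of SOL4, CPD1 and MGA1, had 0.11 and 0.18.

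Genes of adjoining reactions, which feed the pathway or draw on its sugars, included hexokinases, phosphofructokinase, PRPP synthetases and the first enzymes of aromatic amino acid synthesis. Of 26 listed, 25 were tested, 1 rose (NQM1), 0 fell and 24 did not pass, against 2.2% of all genes called higher and 0.531% lower. At an unadjusted p under 0.05 in limma 3 were higher and 5 lower, against 10.2% and 8.97% of all genes. The list had a median log2 fold change of 0.01. The number called was 6 without wild-type replicate 1, 0 without either array labelled hst3hst4, 0 with no filter or no trend, and 5 on hybridisation controls. After NQM1 the highest was PRM15, also known as PGM3, at 0.75 (limma adjusted p = 0.322). The lowest were SOL1, a paralog of SOL3 that acts in tRNA export, at -0.73 (limma adjusted p = 0.186), and HXK2, the main hexokinase, at -0.55 (0.0854).

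NADPH is also made outside the pathway, by acetaldehyde dehydrogenases and NADP-dependent isocitrate dehydrogenases, from NADP that NAD kinases supply. The list of 11 genes for NADPH sources and NADP supply also held MAE1 and the reductases GCY1 and YPR1. Of these 11, all tested, 0 were called by limma, against 2.2% of all genes called higher and 0.531% lower. At an unadjusted p under 0.05 in limma 3 were higher and 0 lower, against 10.2% and 8.97% of all genes. The median log2 fold change of the 11 was 0.53, with 9 above 0. IDP2, the cytosolic isocitrate dehydrogenase, had signals of 36.3 and 38.5 on arrays labelled hst3hst4, against 12.0 and 19.8 on arrays labelled wild-type, and a log2 fold change of 1.11 (limma adjusted p = 0.0895). GCY1, an aldo-keto reductase that oxidises glycerol, had 1.29 (limma adjusted p = 0.232). ALD6, the cytosolic aldehyde dehydrogenase, had signals of 550.3 and 787.5 on arrays labelled hst3hst4, against 713.8 and 1281.8 on arrays labelled wild-type. Its groups overlapped, with a log2 fold change of -0.54 (limma adjusted p = 0.337), and the next lowest was the reductase YPR1 at -0.07. With each array left out in turn the list median ran from 0.19 to 0.57, and the number called was 3 without wild-type replicate 1, 2 without wild-type replicate 2 and 0 in the other fits of this kind. On hybridisation controls 4 were called, and 1 with the replicate block.

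Among 26 genes of NADPH-using enzymes, 3 rose, 0 fell and 23 did not pass, against 2.2% of all genes called higher and 0.531% lower. At an unadjusted p under 0.05 in limma 6 were higher and 5 lower, against 10.2% and 8.97% of all genes. The list median was 0.03. OYE3, an NADPH oxidoreductase, had signals of 60.2 and 71.8 on arrays labelled hst3hst4, against 19.3 and 27.5 on arrays labelled wild-type (log2 fold change 1.39, SE 0.24, limma adjusted p = 0.0284). GDH3, a glutamate dehydrogenase, had 98.1 and 91.0 on arrays labelled hst3hst4, against 40.9 and 30.8 on arrays labelled wild-type (log2 fold change 1.33, SE 0.21, limma adjusted p = 0.0212). TRR2, the mitochondrial thioredoxin reductase, rose by 1.07 (limma adjusted p = 0.0429) and was chosen after its value was seen. The groups of all 3 were apart. Each call was lost with no filter, with no trend and without either array labelled hst3hst4, where log2 fold changes were 1.07 to 1.51 and 1.08 to 1.39, and that of TRR2 also with median centring. The number called ran from 0 to 7 with an array left out and was 7 on hybridisation controls.

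FAS1, a subunit of fatty acid synthase, had the lowest value at -0.59 (limma adjusted p = 0.0611), and ILV5, of branched amino acid synthesis, had -0.49 (0.195).

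Of 10 regulators, 0 were called by limma, against 2.2% of all genes called higher and 0.531% lower. At an unadjusted p under 0.05 in limma 0 were higher and 2 lower, against 10.2% and 8.97% of all genes. The list median was 0.02. STB5, an activator of pentose phosphate genes, had signals of 19.0 and 26.9 on arrays labelled hst3hst4, against 17.1 and 28.6 on arrays labelled wild-type. Its groups overlapped, with a log2 fold change of 0.02 (limma adjusted p = 0.976). YAP1, of the oxidative stress response, had 0.45 and its relative CIN5 0.18. MSN2 had -0.56 (limma adjusted p = 0.217) and GCR2, an activator of glycolytic genes, -0.55 (0.203). These values are transcript levels and say nothing of the activity of the proteins.

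**Figure D5:**
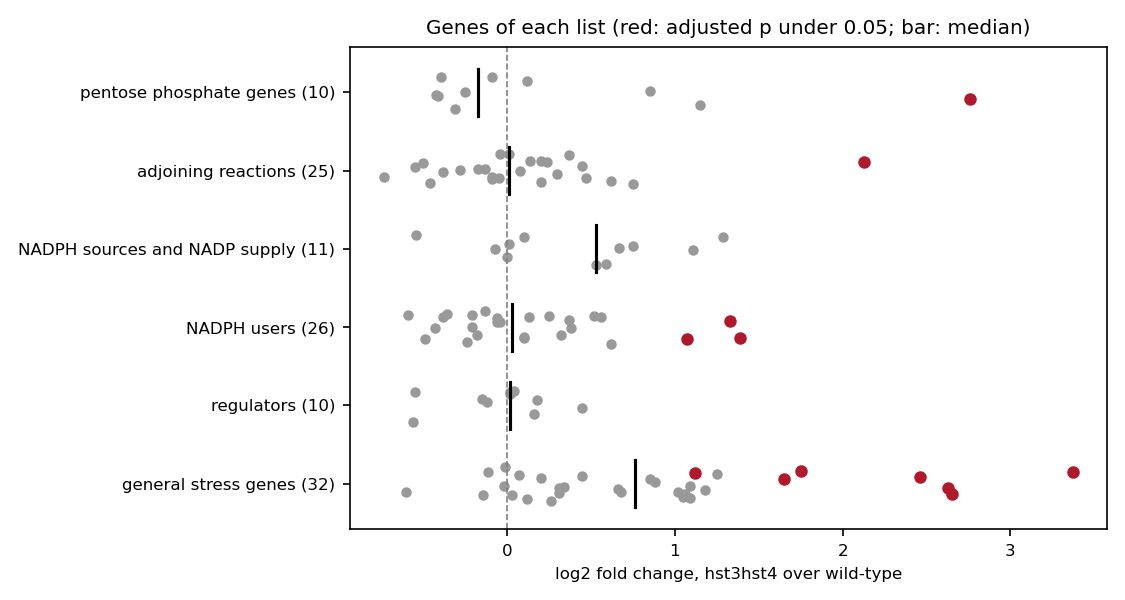
Log2 fold change, hst3hst4 over wild-type, of each gene of the pentose phosphate pathway and of the related lists, with the number of genes tested in brackets, red for an adjusted p under 0.05 and a bar at the median. The pentose phosphate median is -0.17 with GND2 far to the right, and the stress list has the highest median, 0.77.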

How the data were processed

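Total RNA from YPD cultures was extracted with hot phenol, amplified once from an oligo-dT primer and labelled with biotin, per the labels' protocols, which ties signals to the 3' part of transcripts. The authors deposited linear intensity values (signals) per probe set, made with GCOS 1.4 and MAS5 per the submitters' processing notes. The trimmed mean (2% at each end) was 149.9 on each array, and the table holds no detection calls.

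Of 9335 probe sets, 60 controls were left out. Probe sets were named from the platform annotation through gene identifiers of the R64 RefSeq table; 6504 had 1 gene, all matched, and 328 had several. The brightest probe set stood for a gene. Values were taken as log2(signal + 3.3), 3.3 being the 10th percentile, and the dimmest 20% (1855 probe sets) were left out, which kept 7420. The comparison of strains used limma 3.58.1 in R 4.3.3 (lmFit, then eBayes with a trend), two-sided, Benjamini-Hochberg over probe sets, with 2 residual degrees of freedom and a threshold of 0.05. The fit was tested on simulated data. Replicates are independent cultures.

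Members, lists and tests were chosen with earlier results of these data known. Named genes are the members, HST3 and HST4, the 2 highest and 2 lowest of each list, NQM1, STB5, nearest neighbours, and the 5 genes most like GND2 and TAL1. Alternatives were other normalizations, pseudocounts, filters and probe-set rules, no trend, the replicate number as a block, and each array left out. Same-numbered arrays deviated with a correlation of -0.103, so the numbers were not taken to pair samples. No sequences were used here.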

Additional observations from a re-analysis of the deposited data

How the results depend on the processing

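GND2 was called under 9 of 15 alternatives, crossed numbers aside. It was the value the pathway was selected on, so this is no support for it, and fits that leave out an array assume that the lone array of a strain varies like the other strain's. Its log2 fold change was 3.13 with a pseudocount of 1 and 2.0 with one of 12.9. Of 150 member values under these alternatives, 142 moved by less than the spread between replicates, 8 by more, and no called value changed sign. The filters, the fit with no trend, 1 probe set per gene and the replicate block cannot move a member's log2 fold change. Leaving out an array cannot move it by more than that spread. These counts are therefore no measure of how stable the values are. The number of members called was 0 with median centring, with a pseudocount of 1, with no filter and with no trend, 3 with scaling on hybridisation controls, and 0 to 2 with each array left out. SOL3 changed sign when arrays were left out, between -0.24 and 0.05. All probe sets called numbered 196 (156 higher, 40 lower), and 1186 on hybridisation controls (1163 higher, 23 lower), 36 with no filter, 38 with no trend (37 higher, 1 lower) and 4 to 865 with an array left out. Without wild-type replicate 1 the split was 588 higher and 277 lower. The 11 related genes called became 37 on hybridisation controls, 2 with no filter, 2 with no trend and 0 to 41 with an array left out. The replicate block called 343 probe sets, and 1 member, GND2. With the numbers crossed, chosen after seeing the data, it called 329 probe sets and 2 members. Each fit that leaves an array out also has fewer arrays, and on hybridisation controls the median probe set stood at a log2 fold change of 0.34. Why the counts moved was not tested. Signals near the filter, about 8.97, such as GND2 on wild-type arrays, are least certain.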
